A study of Mus musculus with 5 samples.

Results

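The Th1 identity genes examined here are Ifng, Ifngr1, Cxcr3, Havcr2, Tbx21, Eomes, Runx3, Hlx and Stat4, which encode the signature cytokine of type 1 helper T (Th1) cells, 3 receptors, 4 transcription factors and the signal transducer of IL-12. They were 9 of the 21887 protein-coding genes of the RefSeq annotation, and their peaks were all rows of the deposited annotation tables that name one of them as the nearest gene. The study mapped binding of Nr1d1 (REV-ERBα) by ChIP-seq in Th1 cells, grown from naive CD4 T cells that were taken from C57BL/6 wild-type mice of 4 to 6 weeks. All libraries came from cells cultured for 3 to 4 days on anti-CD3 with anti-CD28, the Th1 cytokines IL-12 and IFNγ, and anti-IL-4. There were 3 Nr1d1 ChIP libraries, 1 IgG mock library and 1 library of input DNA, and the labels do not say whether the ChIP libraries came from separate cultures. The cells were made in culture and no unpolarised or other helper cells were sampled, so binding particular to Th1 cells cannot be told apart from binding in T cells at large. Expression was not measured, so the cell type could not be checked against its marker genes in these files.

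Th1 differentiation is driven by IL-12, which activates STAT4, and by IFNγ, which acts through its receptor. Both routes raise T-bet, the product of Tbx21, which works with Runx3, Hlx and Eomes to open and transcribe Ifng and to switch on Th1 surface receptors. REV-ERBα is a repressor of the circadian clock that binds an AGGTCA half-site with an A-T rich extension, called the RORE, or a direct repeat of the half-site, and it competes there with the activating ROR receptors.

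The lists gave each antibody as a whole over the input, 19586 peaks from the Nr1d1 ChIP and 17111 from the IgG mock. A peak is a stretch of the genome where the pull-down exceeded the input. The 14471 ChIP peaks that shared no base with an IgG peak are called ChIP-specific, and the other 5115 shared peaks. No value was given for a single library, and no read count or height for a peak, so the depth is unknown, the 3 ChIP libraries could not be compared and no test over samples was possible. Every count below is therefore a description of these lists.

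Peaks were assigned to 4 of the 9 genes, and each of the 4 had 1. Ifng, Eomes, Cxcr3 and Havcr2 were each the nearest gene of 1 ChIP peak, and all 4 peaks were ChIP-specific. Over all protein-coding genes, 17.5% were assigned a ChIP-specific peak and 22.0% any ChIP peak. The 9 genes were chosen with their peaks known, so the difference from these shares was not tested. An IgG peak was assigned to 0 of the 9 genes, against 17.1% of all, and a shared peak to 0, against 8.89%. Ifngr1, Tbx21, Runx3, Hlx and Stat4 had no row in any of the 3 annotation tables. The 4 peaks lay in 3 kinds of place, with an exon at Eomes, an intron at Havcr2 and intergenic sequence at Ifng and Cxcr3. None was of the promoter class, which 2.67% of all protein-coding genes had in the ChIP-specific list, 4.20% in the full ChIP list and 3.21% in the IgG list. At such shares, 0 of 9 is near the background.

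The start sites of these genes were looked at directly. RefSeq (GRCm38.p6, the build of the peaks) gave 11 promoter windows for the 9 genes, each from 250 bases before to 50 bases after a start site, with 2 windows each for Runx3 and Stat4. None of the 11 windows overlapped a ChIP or an IgG peak. Of all 32851 RefSeq windows, 2.26% overlapped a ChIP peak and 1.75% an IgG peak, so 0 of 11 is near the background. All windows here means those of 27025 genes, noncoding genes included. The nuclear receptor half-site AGGTCA, searched on both strands, occurred in 3 of the 11 windows, those of Ifng, Stat4 and Havcr2, and in 16.3% of all windows. These 3 are shown with the matched letters in capitals, 5′ to 3′ on the strand of the gene, from chr10:118440796-118441095 for Ifng (plus strand), chr1:51986898-51987197 for Stat4 (plus strand) and chr11:46454681-46454980 for Havcr2 (plus strand).
Ifng: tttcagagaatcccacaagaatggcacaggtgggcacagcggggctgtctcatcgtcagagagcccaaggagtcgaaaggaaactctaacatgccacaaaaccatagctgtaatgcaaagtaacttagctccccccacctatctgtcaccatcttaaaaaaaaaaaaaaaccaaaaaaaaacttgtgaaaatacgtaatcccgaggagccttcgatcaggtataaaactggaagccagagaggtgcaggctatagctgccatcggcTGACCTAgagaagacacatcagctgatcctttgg
Stat4: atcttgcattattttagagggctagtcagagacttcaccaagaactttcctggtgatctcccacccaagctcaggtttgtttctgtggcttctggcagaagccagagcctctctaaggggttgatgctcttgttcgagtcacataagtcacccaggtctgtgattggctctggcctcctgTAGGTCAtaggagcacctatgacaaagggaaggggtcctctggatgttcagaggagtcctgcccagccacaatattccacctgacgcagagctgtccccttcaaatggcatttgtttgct
Havcr2: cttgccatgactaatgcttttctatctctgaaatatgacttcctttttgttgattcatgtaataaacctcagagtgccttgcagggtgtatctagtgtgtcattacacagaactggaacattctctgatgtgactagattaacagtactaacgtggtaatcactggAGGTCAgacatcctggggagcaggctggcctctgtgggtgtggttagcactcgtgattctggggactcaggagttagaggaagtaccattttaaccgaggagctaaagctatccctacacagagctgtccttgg
In Ifng the match read TGACCTA, the half-site on the opposite strand, and its first base lay 16 bases downstream of the start site. In the first Stat4 window it read TAGGTCA and began 70 bases upstream. Both are the 7-letter core TAGGTCA of a RORE, which contains the half-site and occurred in 2.61% of all windows. The Havcr2 match began 84 bases upstream and was the half-site alone. The longer form, TAGGTCA preceded by A and any 2 bases, was in 0 of the 11 windows and in 0.700% of all, and AGGTCA repeated after any 2 bases in 0 and 0.00913%. The T-box half-site AGGTGTGA, the kind of letters that T-bet and Eomes recognise, was in 0 of 11 and in 1.28% of all, and the E-box CACGTG of the clock activators in 0 of 11 and 7.15%. These are letter matches in short windows, and the 2 genes with the RORE core had no peak there. The nearest ChIP peak lay 169579 bp from the Ifng start site.

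Ifng, the gene of IFNγ, had the peak with the lowest FDR of the 4 and the one farthest from its gene. The peak lay on chromosome 10, from 118610501 to 118610749, was 250 bp long and had an FDR of 0.00595. Its midpoint was 169578 bp downstream of the annotated start site, and 164607 bp separated the peak from the 3′ end of the gene (118441046 to 118445894). Of the ChIP-specific peaks, 5.41% had a lower FDR, 18.8% were longer, and 88.1% lay nearer to a start site. Ifngas1, a long noncoding RNA gene known for promoting Ifng transcription, lies between gene and peak in RefSeq. Its start site was 54100 bp from the midpoint of the peak, closer than that of Ifng, so the name Ifng depends on the gene set of the deposited annotation. The next RefSeq gene on the other side, the noncoding Gm33337, was 103732 bp from the peak. It was the only ChIP peak within 500 kb of Ifng, the nearest other one being 610577 bp from it. The nearest IgG peak to it was 427402 bp away, and no IgG peak lay within 500 kb of the gene.

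Ifngr1, the ligand-binding chain of the IFNγ receptor (chromosome 10, 19591949 to 19610229), had no peak in its body or within 100 kb. The nearest ChIP-specific peak was 121097 bp downstream of the gene, in an intron of Il20ra, a receptor gene for cytokines of the IL-10 family (19731326 to 19731449, FDR 0.0139), which is the gene it was assigned to. The nearest IgG peak was 483047 bp downstream, and it overlapped a ChIP peak in an intron of Map3k5. Neither Ifng nor Ifngr1 had a peak of either list within 100 kb, a window that held a ChIP-specific peak for 53.0% of all protein-coding genes and an IgG peak for 50.1%.

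**Figure D1:**
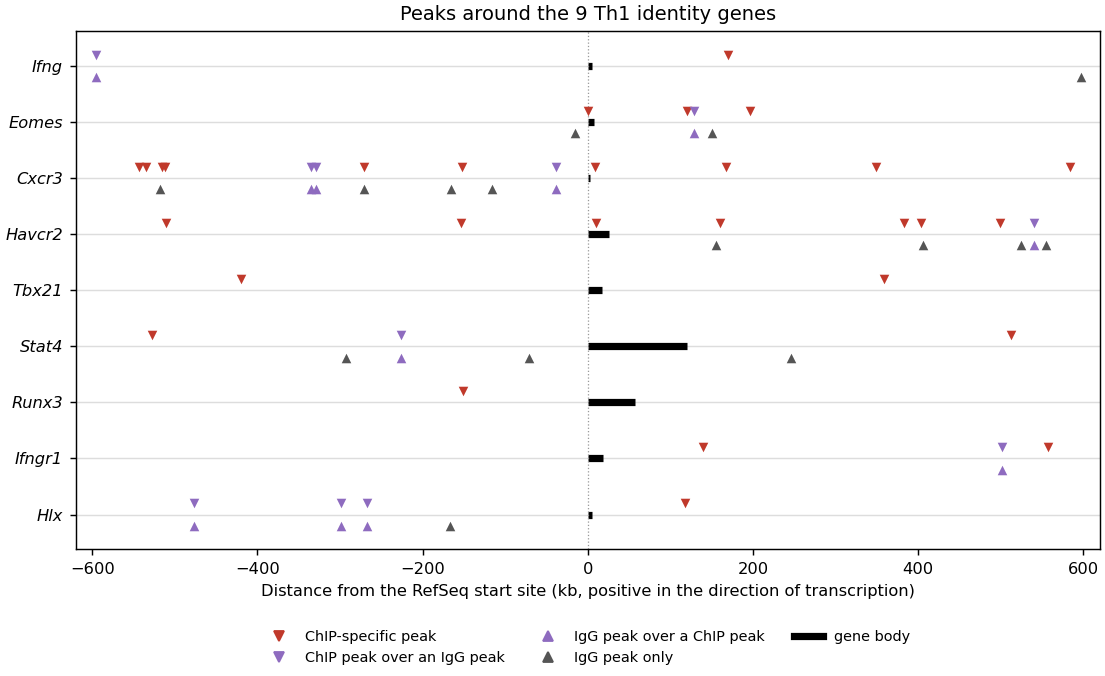
Positions of deposited peaks within 600 kb of the start site of each gene, drawn in the direction of transcription (x axis, kb; each row is 1 gene). Triangles pointing down are ChIP peaks, triangles pointing up IgG peaks, purple marks sites where the lists overlap, and black bars are gene bodies; the bodies of Eomes and Havcr2 hold a ChIP-specific peak, and no gene body holds an IgG peak.

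Havcr2 encodes TIM-3, an inhibitory receptor of Th1 and exhausted T cells, and its peak lay inside the gene. The peak was intronic (chromosome 11, 46465001 to 46465274), 275 bp long, 10168 bp downstream of the annotated start site, with an FDR of 0.00880. Of ChIP-specific peaks, 11.02% had a lower FDR and 12.2% were longer. That printed FDR was shared by 1026 ChIP-specific peaks, so FDR alone ranks it only coarsely. Among the 4452 intronic ChIP-specific peaks, 29.6% lay nearer to a start site. The nearest IgG peak was 144652 bp from it. Within 500 kb of Havcr2 there were 6 ChIP-specific and 3 IgG peaks, and 22.0% of protein-coding genes had more than 6 ChIP-specific peaks in such a window.

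Cxcr3 encodes the receptor for the interferon-induced chemokines CXCL9 and CXCL10 and guides Th1 cells to inflamed tissue. Its peak was the weakest of the 4, with an FDR of 0.0367, which 89.1% of ChIP-specific peaks undercut. It was 100 bp long, a length that 11.3% of ChIP-specific peaks had and that was the shortest in the list. It was intergenic on chromosome X (101724651 to 101724749), 9569 bp downstream of the annotated start site and 6786 bp beyond the 3′ end of the gene. The nearest IgG peak was 47927 bp from it, on the other side of the gene, and overlapped a ChIP peak near the pseudogene Tpt1-ps6. Peaks were dense around Cxcr3, with 5 ChIP-specific and 6 IgG peaks within 500 kb, but the median gene of chromosome X had 8 and 9. On X, 30.8% of protein-coding genes were assigned a ChIP-specific peak and 36.7% an IgG peak.

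Eomes, the T-box factor that shares targets with T-bet and is prominent in cytotoxic lymphocytes, had the peak closest to a start site. It lay on chromosome 9, from 118478926 to 118479174, over an exon, 250 bp long and with an FDR of 0.00956. The annotation places it 189 bp downstream of a start site, and 4.37% of ChIP-specific peaks lay nearer to one. That site belongs to an Ensembl transcript whose start is 672 bp inside the RefSeq gene. From the RefSeq start site, the midpoint of the peak was 861 bp downstream, outside the promoter window. Of ChIP-specific peaks, 26.04% had a lower FDR and 18.8% were longer. The lncRNA gene Gm33408, on the opposite strand, had its RefSeq start site 318 bp from the midpoint, closer than the RefSeq start site of Eomes. Its promoter window overlapped 57 bp of the peak (22.9% of its printed span). These bases were 71.9% G and C and matched 0 of the 6 motifs searched. An IgG peak lay 16577 bp upstream of the peak (118462076 to 118462349, FDR 0.00155). The printed FDR of this IgG peak was lower than that of the Eomes peak, though FDRs of the ChIP and IgG lists may not be on one scale. It was assigned to the pseudogene Gm22479, and lay 15837 bp from Eomes, the shortest gap between an IgG peak and any of the 9 genes. In the RefSeq promoter table the start site of Eomes was the closest to this IgG peak.

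**Figure D2:**
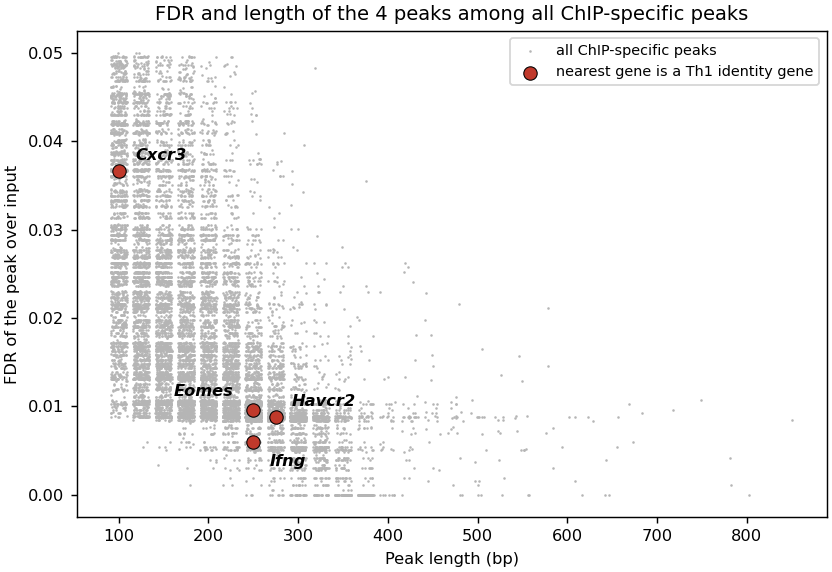
FDR over input (y axis) against length in bp (x axis, points spread sideways within each length) for the 14471 ChIP-specific peaks in grey and the 4 peaks assigned to Th1 identity genes in red. The peaks at Ifng, Havcr2 and Eomes have an FDR between 0.00595 and 0.00956 and lengths of 250 to 275 bp, and the Cxcr3 peak is among the shortest with an FDR of 0.0367.

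By the nearest RefSeq start site of any gene, the Cxcr3 and Havcr2 peaks thus kept their gene, and those of Ifng and Eomes went to noncoding genes. By FDR, 3 of the 4 peaks were in the stronger part of the ChIP-specific list and the Cxcr3 peak in the weaker part. The FDRs ran from 0.00595 to 0.0367, against a median of 0.0146 over ChIP-specific peaks, and 3 of the 4 were below that median. Their lengths ran from 100 to 275 bp, against a median of 200 bp. None had an FDR printed as 0, a value that 162 ChIP-specific, 1600 shared and 2934 IgG peaks had. The ChIP-specific list leaves out the shared peaks, whose median FDR was lower, at 0.00595. In the full ChIP list, 17.0% of peaks had a lower FDR than the Ifng peak, 23.9% than Havcr2, 38.5% than Eomes and 91.3% than Cxcr3. The median FDR of the IgG list was 0.00845, above the FDR of the Ifng peak and below those of Havcr2, Eomes and Cxcr3. The ChIP and IgG lists come from different numbers of libraries at unknown depth, so their FDRs may not be on one scale.

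The other transcription factors and the STAT had no ChIP peak in the gene body or within 100 kb, and Stat4 had 1 IgG peak within 100 kb. Tbx21, the gene of T-bet (chromosome 11, 97098007 to 97115331), was 341883 bp from the nearest ChIP-specific peak, and 86.6% of protein-coding genes had one closer. Its nearest IgG peak was 816995 bp away, at a site where the ChIP list also had a peak, and 96.8% of genes had an IgG peak closer. Stat4, which carries the IL-12 signal (chromosome 1, 51987106 to 52107189), was the longest of the 9 genes with 120084 bp and held no peak. Its nearest ChIP-specific peak was 393087 bp downstream, at the promoter of Nab1, and 89.3% of genes had one closer.

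Runx3, a Runt factor that binds Ifng together with T-bet (chromosome 4, 135120645 to 135177990), had its nearest ChIP-specific peak 150696 bp upstream, an intergenic one assigned to Syf2 (134969726 to 134969949, FDR 0.00749). Its nearest IgG peak was 802746 bp away. Hlx, a homeobox factor induced by T-bet (chromosome 1, 184727143 to 184732493), had its nearest ChIP-specific peak 112294 bp downstream (184614676 to 184614849, FDR 0.0124) and its nearest IgG peak 166158 bp upstream. Within 500 kb of Hlx there were 1 ChIP-specific and 4 IgG peaks, and 3 of these 4 overlapped ChIP peaks, among them the site at the promoter of Mark1.

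Counted by window instead of by nearest gene, ChIP-specific and IgG peaks lay within 100 kb of the same number of these genes. A ChIP-specific peak lay in the body or within 100 kb of 3 of the 9 genes, Eomes, Cxcr3 and Havcr2, against 53.0% of all protein-coding genes. An IgG peak did so for 3 as well, Eomes, Cxcr3 and Stat4, against 50.1%. Within 500 kb there were 21 ChIP-specific and 21 IgG peaks in total over the 9 genes. The IgG list keeps its sites shared with the ChIP and the ChIP-specific list does not; the full ChIP list had 30 peaks within 500 kb, and 4 against 3 IgG peaks within 100 kb. A ChIP-specific peak was within 500 kb of all 9 genes (93.1% of all genes) and an IgG peak of 6 (90.6%), the exceptions being Ifng, Tbx21 and Runx3. The median gene of the 9 had 1 ChIP-specific and 3 IgG peaks within 500 kb, against a median of 3 for each list over all genes. The median gap to the nearest ChIP-specific peak was 121097 bp, against 89719 bp over all genes, and to the nearest IgG peak 166158 bp, against 99511 bp. Peaks in the gene body were found in 2 of 9 genes for the ChIP-specific list (13.7% of all) and in 0 for IgG (13.1%).

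**Figure D3:**
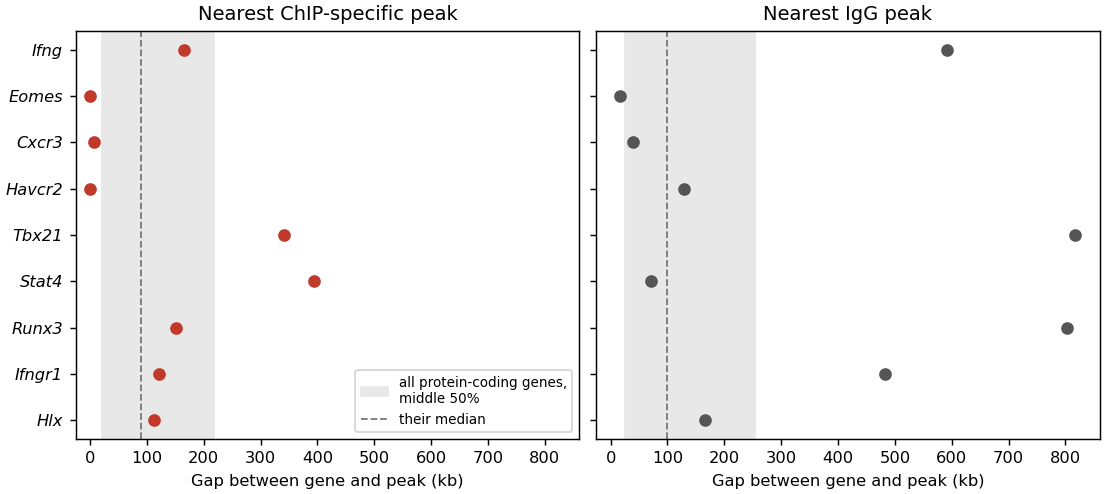
Gap in kb between each gene body and the nearest ChIP-specific peak (left) or IgG peak (right), with 0 for a peak inside the gene. The grey band is the middle 50% of all 21887 protein-coding genes and the dashed line their median, 89719 bp for ChIP-specific and 99511 bp for IgG peaks; Tbx21 and Stat4 lie above the band on the left, and Ifng, Tbx21, Runx3 and Ifngr1 on the right.

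The wider Th1 pathway was described with 5 lists by role that together held 45 genes, the 9 included. A ChIP-specific peak was assigned to 7 of the 45 (15.6%, against 17.5% of all protein-coding genes) and an IgG peak to 2 (4.44%, against 17.1%). By role, the ChIP-specific numbers were 2 of 15 cytokines and ligands, 2 of 11 receptors, 0 of 6 kinases, STATs and their inhibitor, 3 of 10 transcription factors and 0 of 3 effector molecules. Without the 9 genes, 3 of 36 had one (8.33%): Il12b, Prdm1 and Bhlhe40. Il12b, the p40 subunit of IL-12, had its peak in intergenic sequence, 3213 bp upstream of the start site (chromosome 11, 44396751 to 44396949, FDR 0.0163). Prdm1, the gene of the repressor Blimp-1, had one 46012 bp downstream (chromosome 10, 44412551 to 44412799, FDR 0.00887). Bhlhe40, a clock-controlled factor that sustains IFNγ production, had the one promoter peak of the 45 genes, 792 bp upstream of its start site (chromosome 6, 108659726 to 108659949, FDR 0.0183). Twist1 and Id2, a T-bet target that limits inflammation and an inhibitor of E proteins, were the 2 genes with an IgG peak, and both IgG peaks overlapped the ChIP peak assigned to the same gene. Cxcl11 is in the ligand list but not among the RefSeq protein-coding genes used here.

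Genes of other helper subsets gave the scale of such counts. Of 30 genes of the Th2, Th17 and regulatory T cell programmes, 5 (16.7%) were assigned a ChIP-specific peak, 3 a shared peak and 4 (13.3%) an IgG peak. The Th2 gene Il5 and the Th17 gene Il17f each had an intronic ChIP-specific peak, 1231 and 642 bp downstream of the start site. The Il5 peak was 250 bp long with an FDR of 0.00934, and the Il17f peak 125 bp with an FDR of 0.0326. Il17a had an intergenic ChIP-specific peak 17493 bp upstream with the same printed FDR as Havcr2, 0.00880. Maf, Rora and Ikzf2 had shared peaks, which 8.89% of all protein-coding genes were assigned. Maf also had ChIP-specific peaks, all intergenic, the nearest 229506 bp upstream of its start site (FDR 0.0288). An IgG peak assigned to Maf lay close to that one without overlap, 229181 bp upstream of the start site (FDR 0.00148). Tgfb1, of the regulatory T cell list, had a ChIP-specific peak of the promoter class, 665 bp upstream of its start site (FDR 0.0179). The difference between the 4 of 9 Th1 identity genes and the 5 of 30 others was not tested, since the 9 were chosen with their peaks known.

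**Figure D4:**
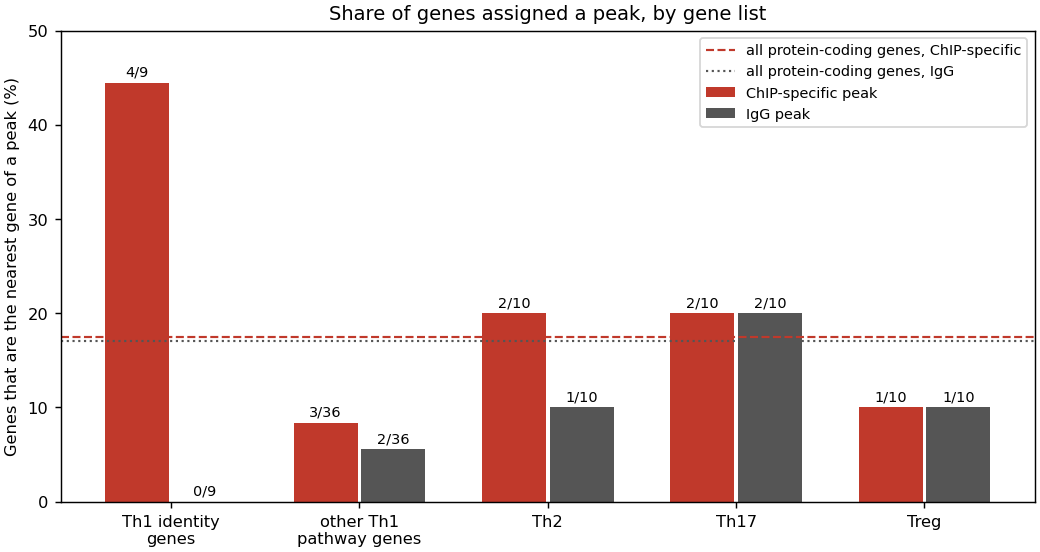
Percent of genes in each list that are the nearest gene of a ChIP-specific peak (red bars) or an IgG peak (grey bars), with the number of genes above each bar and the share over all protein-coding genes as lines (17.5% and 17.1%). The 9 Th1 identity genes stand at 4 and 0, the 36 other Th1 pathway genes at 3 and 2, and the 9 were chosen with these assignments known.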

How the data were processed

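The authors aligned reads to mm10 (GRCm38) with BWA and annotated peaks with HOMER, per the submitters' processing notes. How the 3 ChIP libraries were combined, and with which caller, is not given in the sources used here. Libraries were grouped by title, since the label for the antibody gives Nr1d1 even for mock and input. Each peak's q-value was deposited as an FDR with 6 decimals, all under 0.05, and the deposited score equals the peak length. Coordinates are 1-based and include both ends. The printed span of a peak is 1 bp shorter than its deposited length, and lengths are given as deposited. The nearest gene, distance and class are the authors' HOMER annotation. Older symbols were replaced by current ones of RefSeq GRCm38.p6, which also gave gene bodies and promoters. Gaps, overlaps of at least 1 bp and motif matches were computed in Python 3.11.15 (pandas 2.3.3, numpy 2.4.6), and the overlap code was tested on simulated intervals. With 1 list per antibody no replicate could be left out and no test was run. The genes, lists and windows were chosen with earlier results of these data known. Named genes are the 9, the Th1 pathway genes with a peak and the genes at the nearest peaks; genes of other subsets were named after their values were seen. Some genes at nearby peaks are not reported here. Peak sequences were not used here, except 57 bp of the Eomes peak.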

Additional observations from a re-analysis of the deposited data

How the results depend on the processing

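The number of Th1 identity genes assigned a ChIP-specific peak, 4 of 9, rests on 1 peak per gene and on how a peak is given to a gene. It was 3 with an FDR of at most 0.01 (Cxcr3 lost; 7.67% of all genes) and 3 within 100 kb of the start site (Ifng lost; 16.8%). Within 10 kb it was 2 (Eomes and Cxcr3; 9.86%), with Havcr2 just outside. Counting peaks over the gene or up to 5 kb beyond it gave 2 (Eomes and Havcr2; 16.8%). It was 4 with all ChIP peaks (22.0% of all genes) and 4 with no IgG peak within 1 kb (17.2%). With an assignment added after seeing the data, by the nearest RefSeq start site of any gene, 2 (Cxcr3 and Havcr2; 16.7%) were assigned a ChIP-specific and 1 (Eomes; 16.1%) an IgG peak. Windows around the gene added after seeing the data gave 3 at 100 kb (53.0%) and 9 at 500 kb (93.1%) for ChIP-specific peaks. The number assigned an IgG peak was 0 at an FDR of at most 0.01 (12.0%), within 100 kb of the start site (16.6%) and in the gene body or within 5 kb (15.9%), and became 3 (50.1%) and 6 (90.6%) in the added windows of 100 and 500 kb around the gene. For the 45 Th1 pathway genes, 7 became 4 with an FDR of at most 0.01 (7.67%). Their number was 4 over the gene or up to 5 kb beyond it (16.8%) and 6 within 100 kb of the start site (16.8%). Wider windows and stricter limits change these counts by construction. No paired analysis was possible because the lists hold no value per library, and the unknown depth limits what the 5 genes without a peak can show.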
